A study of Homo sapiens with 10 samples.

Results

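The laminins, nidogens and integrins were taken as the genes whose symbols in the deposited table name a laminin α, β or γ chain, a nidogen, or an integrin α or β subunit. This gave 40 genes of 64940, of which 12 encode laminin chains, 2 encode nidogens, 18 encode integrin α subunits and 8 encode integrin β subunits. Laminins are heterotrimers of an α, a β and a γ chain that polymerise into the sheet of the basement membrane, and nidogens bridge this sheet to the collagen IV network by binding the γ1 chain and collagen IV. Integrins are αβ heterodimers in the plasma membrane that bind laminins, collagens or proteins with an RGD motif outside the cell and couple them through talin and kindlin to actin. Germ cells of the embryo meet laminin-containing matrix during migration, and hESCs are commonly grown on laminin-containing coatings.

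Differentiated cells of H9, an established human embryonic stem cell (hESC) line, were sequenced as 2 control and 2 oeDAZL libraries. The oeDAZL libraries are labelled as human primordial germ cell-like cells (hPGCLCs) overexpressing DAZL, a germ cell RNA-binding protein, whereas the control libraries are labelled wild type and spontaneously differentiated. The deposited design text calls both groups PGCLCs, and for its miRNA libraries the study's methods give both groups BMPs, the controls a GFP virus, and collection by FACS. The sources used here do not say whether this holds for the RNA-seq controls, so a difference in differentiation and the effect of DAZL cannot be told apart. Per the study's methods, cells were plated on Matrigel, a laminin-rich basement membrane extract from a mouse tumour, differentiated with BMP4 and BMP8a, and transduced with lentivirus for overexpression. All values come from 1 cell line, and nothing in the labels says that the replicates were separate cultures, so the p-values measure only the spread between these libraries, which may be technical.

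DAZL itself had 0 and 0.0333 TPM in control against 102 and 101 TPM in oeDAZL. TPM, a measure of transcript abundance, is scaled for transcript length and to a fixed total per library, so it keeps no read depth and no counting error can be given. The control libraries lay further from each other than the oeDAZL libraries on the first principal component, at −30.1 and −7.97 against 22.4 and 15.7. Of the germ cell markers, DDX4 was at 0 in all 4 libraries and NANOS3 was at 1.39 and 1.66 TPM in control and at 1.07 and 0.732 TPM in oeDAZL, while 7 of 9 markers had a mean of at least 1 TPM and the list summed to 73.8 to 84.5 TPM in control and 80.7 to 84.2 TPM in oeDAZL. Of the others, TFAP2C had 44.3 to 53.9 TPM, KIT, SOX17 and PRDM1 had 1.47 to 7.70 TPM, and POU5F1 had 13.6 and 10.6 TPM in control and 22.4 and 20.4 TPM in oeDAZL. The 4 epithelial markers summed to 12346 and 13209 TPM in control and to 14209 and 13983 TPM in oeDAZL, mostly KRT8 and KRT18, while CDH1 on the same list had 588 and 530 TPM in control and 483 and 500.1 TPM in oeDAZL.

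Across the 4 libraries the 40 genes took 0.254% to 0.269% of all TPM. A mean of at least 1 TPM was reached by 26 of them (7 laminins, 2 nidogens and 17 integrins), and only these were tested, with limma on log2(TPM + 1) fitted over all 16687 genes at that level. The study's threshold, a fold change of at least 2 with an unadjusted P of at most 0.05, was passed by 0 of the 26 genes, against 0.689% of all tested genes (0.126% higher and 0.563% lower). The study applied this threshold to a test on counts and reported many more genes than passed it here with limma, so the yields are not comparable. At an unadjusted P of at most 0.05 whatever the fold change, which is what "rose" and "fell" mean below, 5 genes rose and 8 fell. In all tested genes this share was 20.2% (5.02% higher and 15.2% lower). After Benjamini-Hochberg adjustment over all tested genes in limma 1 gene, NID2, remained under 0.05 and was lower, against 0.0599% of all genes (0.024% higher and 0.036% lower). These counts rest on 2 libraries per group. With either oeDAZL library left out fewer genes passed, both in the family and over all tested genes. The standard errors were then larger (0.15 against 0.09 for ITGB4). The log2 fold change of ITGB4 was 0.27 without oeDAZL replicate 1 and 0.30 without oeDAZL replicate 2, against 0.28 with all libraries. That of NID1 was −0.49 and −0.27, against −0.38. Leaving out a control library moved ITGAV and ITGA9 more than this, as given below.

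**Figure D1:**
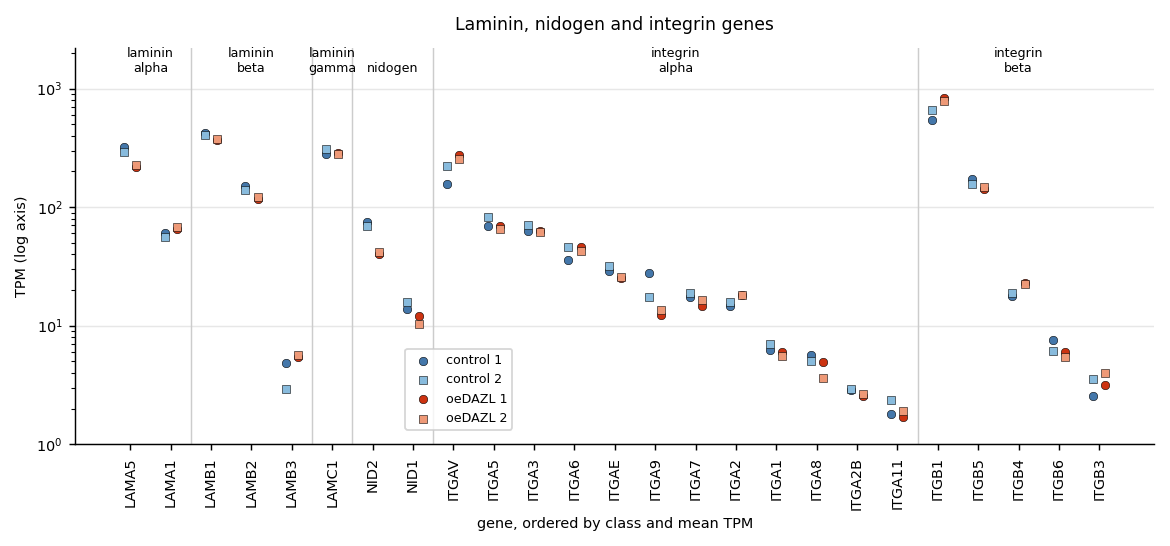
TPM (log axis) of 25 of the 26 tested laminin, nidogen and integrin genes in the 2 control and 2 oeDAZL libraries, 1 point per library. ITGB1 has the highest level, between 543 and 829 TPM, and NID2 lies at 69.5 and 74.7 TPM in control against 40.1 and 41.8 TPM in oeDAZL.

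Both nidogens fell in the oeDAZL libraries. NID2 (ENSG00000087303, hg38 chr14:52004809-52069059, minus strand), the more abundant nidogen here, had 74.7 and 69.5 TPM in control and 40.1 and 41.8 TPM in oeDAZL, or 72.1 ± 3.70 against 41.0 ± 1.20 TPM (SD, n = 2). Both oeDAZL libraries lay far below both control libraries, and the gap was several times the spread within either group. The log2 fold change was −0.80 (SE 0.07), with a limma adjusted p of 0.0431 that ranked NID2 9th by unadjusted P among all tested genes. Without single libraries the change stayed between −0.85 and −0.75, but its limma adjusted p was 0.140 without control replicate 1, 0.138 without oeDAZL replicate 1 and 0.0909 without oeDAZL replicate 2. RTRAF, on the opposite strand, shares 1909 of the 6217 exonic bases of NID2, and the sources used here do not say whether the counting used strand. RTRAF had 52.4 and 48.8 TPM in control and 44.1 and 50.2 TPM in oeDAZL, so its groups overlapped.

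NID1 (ENSG00000116962, chr1:235975830-236065109, minus strand), the paralogue that binds the same laminin γ1 chain, was lower in level. Its TPM were 13.9 and 15.9 in control and 12.2 and 10.3 in oeDAZL. The groups did not overlap, though oeDAZL replicate 1 lay close to control replicate 1. The log2 fold change was −0.38 (SE 0.13, limma adjusted p = 0.192), and the gene no longer passed without control replicate 2 (−0.29), without oeDAZL replicate 2 (−0.27), with median-of-ratios scaling (−0.30) or with quantile normalization (−0.28). Summed nidogen TPM was 88.6 and 85.4 in control and 52.3 and 52.1 in oeDAZL, and NID2 made up 84.4% and 81.4% of it in control and 76.8% and 80.3% in oeDAZL. The ratio of NID2 to LAMC1, the γ chain that nidogens bind, was 0.265 and 0.226 in control and 0.139 and 0.150 in oeDAZL. For such sums, shares and ratios, taken over 2 against 2 libraries, the smallest p that a two-sided exact permutation test allows is 0.333, which the nidogen total, the NID2 share and this ratio each reached.

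Of the laminins, LAMA5, LAMB2 and LAMB1 fell and LAMA1 rose. Their chains differ in where they are used, the α1 chain being the early embryonic and Matrigel-type α chain and the α5 chain being widespread in epithelial basement membranes and in the laminins made by hESCs. Summed laminin TPM was 1272 and 1236 in control and 1087 and 1101 in oeDAZL, with no overlap. The α chains summed to 382 and 353 TPM in control and to 285 and 294 TPM in oeDAZL, again with no overlap.

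LAMA5 (ENSG00000130702, chr20:62307955-62367312, minus strand) had 319 and 294 TPM in control and 218 and 225 TPM in oeDAZL. The lower of the controls was well above the higher of the oeDAZL libraries. It changed by −0.47 on the log2 scale (SE 0.06, limma adjusted p = 0.0885), and it was 33rd by unadjusted P among all tested genes. The other expressed α chain went the other way. LAMA1 (ENSG00000101680, chr18:6941742-7117797, minus strand) had 60.6 and 56.4 TPM in control and 65.7 and 67.8 TPM in oeDAZL, with both oeDAZL libraries above both controls. Its log2 fold change was 0.19 (SE 0.07, limma adjusted p = 0.208), and its unadjusted P was 0.0852 without control replicate 2, 0.0952 without oeDAZL replicate 1 and 0.174 without oeDAZL replicate 2.

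The shares of LAMA5 and LAMA1 did not overlap between the groups. LAMA5 took 83.4% and 83.5% of laminin α TPM in control and 76.5% and 76.3% in oeDAZL, and LAMA1 took 15.9% and 15.99% in control and 23.1% and 23.1% in oeDAZL. The ratio of LAMA5 to LAMA1 was 5.26 and 5.22 in control against 3.32 and 3.31 in oeDAZL. The LAMA1 share differed by 7.12 percentage points between the groups, beside an SD of 0.0898 points in control (7.06 to 7.19 points with single libraries left out), and the two-sided exact permutation test gave its smallest p, 0.333, for both shares and the ratio. As a ratio within a library, this quantity does not depend on how the libraries were scaled to each other. It is not corrected for GC content, which was 66.4% for LAMA5 and 50.5% for LAMA1.

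**Figure D2:**
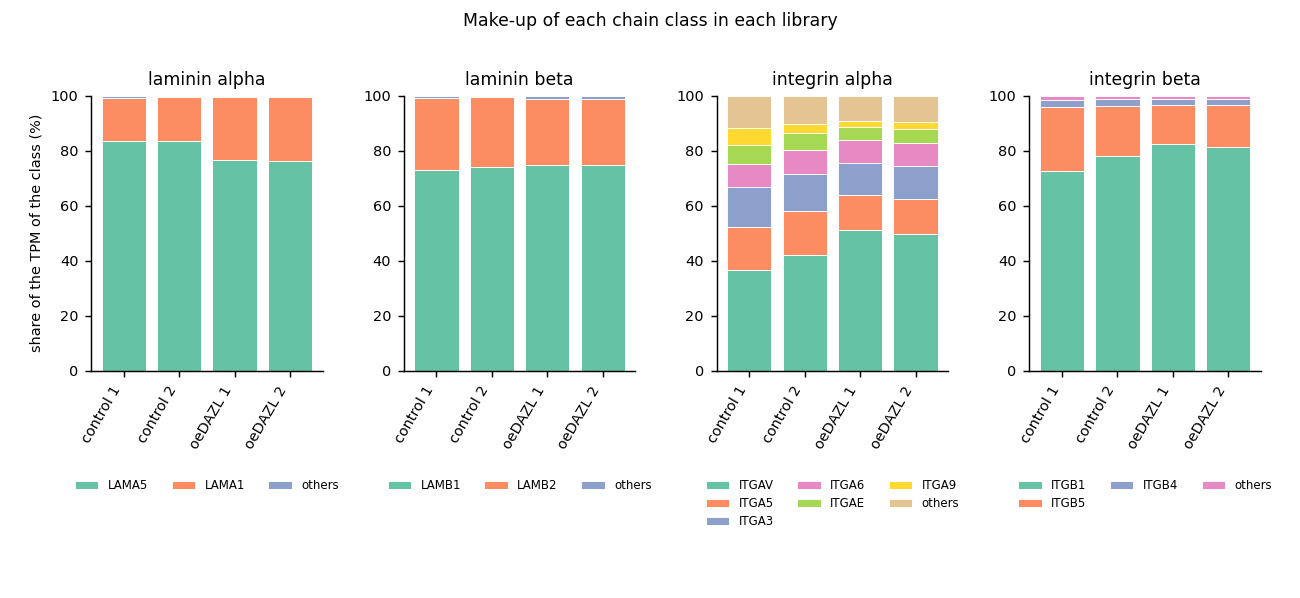
Stacked bars give the share (%) of each chain in the summed TPM of the laminin α, laminin β, integrin α and integrin β classes, 1 bar per library. LAMA1 goes from 15.9% and 15.99% of laminin α in control to 23.1% in both oeDAZL libraries, and ITGAV from 36.5% and 42.2% of integrin α to 51.1% and 49.9%.

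LAMB1 (ENSG00000091136, chr7:107923799-108003213, minus strand), the β chain of most embryonic laminins, was the most abundant laminin transcript. It had 424 and 407 TPM in control and 366 and 375 TPM in oeDAZL (log2 fold change −0.16, SE 0.05, limma adjusted p = 0.177). The groups did not overlap but lay close, and the gene no longer passed without oeDAZL replicate 1 (−0.15), without oeDAZL replicate 2 (−0.18), without limma's trend, or with median-of-ratios scaling (−0.08). LAMB2 (ENSG00000172037, chr3:49121114-49133118, minus strand), its counterpart in laminins of kidney, muscle and nerve, had 151 and 140 TPM in control and 118 and 121 TPM in oeDAZL. Both oeDAZL libraries lay below both controls, with a log2 fold change of −0.28 (SE 0.06, limma adjusted p = 0.106). LAMB1 made up 73.2% and 74.0% of laminin β TPM in control and 74.8% in each oeDAZL library, a difference of 1.25 percentage points. LAMB3, a chain of the epidermal anchoring laminin, had 4.80 and 2.94 TPM in control and 5.43 and 5.62 TPM in oeDAZL. It did not pass (log2 fold change 0.45, SE 0.22), although it did without control replicate 1 (0.73). It also did with median-of-ratios scaling (0.52), quantile normalization (0.60) and a fit that paired libraries of unlike replicate number (0.45).

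LAMC1, the γ chain common to most laminins, did not pass, at 282 and 307 TPM in control and 288 and 279 TPM in oeDAZL. Its groups overlapped, and its log2 fold change was −0.05 with an SE of 0.06. Of the chains under the level for testing, LAMA2, LAMA3, LAMA4, LAMB4 and LAMC3 were at 0 to 1.13 TPM in single libraries.

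Among the integrins the most abundant β and α subunits rose. Summed integrin TPM was 1180 and 1368 in control and 1543 and 1483 in oeDAZL, the opposite order from that of the laminins. The higher sum came mostly from ITGB1 and ITGAV. Of the 17 tested integrins, 11 had a negative log2 fold change and 6 a positive one. The α subunits summed to 433 and 522 TPM in control and to 540 and 514 TPM in oeDAZL, so these groups overlapped. The β subunits summed to 747 and 846 TPM in control and to 1004 and 969 TPM in oeDAZL. ITGB1 (ENSG00000150093, chr10:32887273-33005792, minus strand), the β1 subunit that pairs with most laminin-, collagen- and fibronectin-binding α subunits, had 543 and 660 TPM in control and 829 and 788 TPM in oeDAZL. The controls were further apart than the oeDAZL replicates, and there was no overlap. Its log2 fold change was 0.43 (SE 0.10, limma adjusted p = 0.110), with 0.29 without control replicate 1 and 0.57 without control replicate 2.

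ITGAV (ENSG00000138448, chr2:186590010-186680901, plus strand), the αV subunit of the RGD-binding integrins, was the most abundant α subunit. Its TPM were 158 and 220 in control and 276 and 256 in oeDAZL. Control replicate 2 lay nearer to the oeDAZL libraries than control replicate 1 did. The log2 fold change of 0.51 (SE 0.15, limma adjusted p = 0.158) was the largest on the log2(TPM + 1) scale among the 5 genes that rose, and it was 0.27 without control replicate 1 and 0.75 without control replicate 2. ITGAV made up 36.5% and 42.2% of integrin α TPM in control and 51.1% and 49.9% in oeDAZL, and ITGB1 made up 72.7% and 78.0% of integrin β TPM in control and 82.6% and 81.3% in oeDAZL. The differences of 11.2 and 6.59 percentage points ran from 8.31 to 14.0 and from 3.98 to 9.20 points with single libraries left out, and the two-sided exact permutation p was 0.333 for each, the smallest possible.

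ITGB5, a β subunit that pairs with αV to bind vitronectin, fell while its partner rose. It had 173 and 156 TPM in control and 141 and 148 TPM in oeDAZL (log2 fold change −0.18, SE 0.07, limma adjusted p = 0.225). The groups did not overlap, but the gene no longer passed without control replicate 1 (−0.11), without oeDAZL replicate 1 (−0.15), without oeDAZL replicate 2 (−0.22), with median-of-ratios scaling (−0.099), without a filter on TPM, without limma's trend or with GC content and length corrected for (−0.16). The ratio of ITGAV to ITGB5 was 0.910 and 1.41 in control and 1.95 and 1.73 in oeDAZL (exact permutation p = 0.333). ITGB1 is a further partner of αV. Of the remaining αV partners, ITGB8 was under the level for testing, ITGB6 had 7.53 and 6.16 TPM in control and 6.003 and 5.45 TPM in oeDAZL, and ITGB3 had 2.53 to 3.96 TPM over the 4 libraries, the latter pair not passing.

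Among ITGA6, ITGB4, ITGA3 and ITGA7, subunits of laminin-binding integrins, only ITGB4 passed with all libraries. Differences between these genes were not tested. ITGA6, which pairs with β1 or β4 and is widely used as a stem cell and germ cell surface marker, did not pass, with 36.1 and 46.1 TPM in control and 46.1 and 42.8 TPM in oeDAZL. Its groups overlapped (log2 fold change 0.12, SE 0.12), and it rested on the controls, at −0.052 without control replicate 1 and at 0.29, where it passed, without control replicate 2. ITGB4, the hemidesmosomal partner of ITGA6, rose from 17.7 and 19.0 TPM to 22.7 and 22.3 TPM with no overlap (log2 fold change 0.28, SE 0.09, limma adjusted p = 0.173), although not without oeDAZL replicate 1 (0.27) or oeDAZL replicate 2 (0.30). ITGA3, an α subunit for the α5-containing laminins, had 63.1 and 70.7 TPM in control and 62.8 and 61.5 TPM in oeDAZL, and ITGA7, known from muscle, had 17.4 and 18.9 TPM in control and 14.8 and 16.5 TPM in oeDAZL. Neither of the latter passed, at log2 fold changes of −0.10 and −0.20, except for ITGA3 without control replicate 1 (−0.18).

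Of the collagen-binding α subunits, ITGA2 rose, from 14.8 and 15.7 TPM to 18.2 and 18.01 TPM. The log2 fold change was 0.23 (SE 0.09, limma adjusted p = 0.236), and the gene no longer passed without control replicate 1 (0.19), without oeDAZL replicate 1 (0.23) or without oeDAZL replicate 2 (0.24). ITGA1 had 5.60 to 7.05 TPM and ITGA11 had 1.69 to 2.38 TPM over the 4 libraries, and neither passed. ITGA5, the classical fibronectin receptor subunit, had 68.9 and 82.9 TPM in control and 68.6 and 65.4 TPM in oeDAZL. It did not pass (log2 fold change −0.17, SE 0.10). The exceptions were the fit without control replicate 1 (−0.30) and a fit that paired libraries of unlike replicate number (−0.17). As a share of integrin α TPM, ITGA5 was 15.9% in each control and 12.7% in each oeDAZL library. That total includes ITGAV, whose share went from 36.5% and 42.2% to 51.1% and 49.9%. The lower ITGA5 share is therefore not a separate measure of a fall in ITGA5.

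ITGA9 (ENSG00000144668, chr3:37452115-37823507, plus strand), a receptor subunit for tenascin and other ligands, had the largest fall of the integrins. It had 27.6 and 17.5 TPM in control and 12.3 and 13.7 TPM in oeDAZL. Both oeDAZL libraries lay below both controls, but control replicate 1 stood well above control replicate 2. The log2 fold change was −0.72 (SE 0.20, limma adjusted p = 0.155), at −0.40 without control replicate 1 and −1.03 without control replicate 2, where it passed the 2-fold threshold. ITGA9-AS1, on the opposite strand, shares 763 of the 8270 exonic bases and had 2.69 to 4.002 TPM. ITGAE, the αE subunit that binds E-cadherin, fell from 29.0 and 31.8 TPM to 25.2 and 25.7 TPM (log2 fold change −0.24, SE 0.08, limma adjusted p = 0.195), although not without control replicate 2 (−0.18), oeDAZL replicate 1 (−0.23) or oeDAZL replicate 2 (−0.26), nor with median-of-ratios scaling (−0.16) or quantile normalization (−0.17). ITGA8, a nephronectin receptor subunit, had 3.61 to 5.67 TPM and ITGA2B, the platelet subunit, had 2.57 to 2.93 TPM, and neither passed.

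The leukocyte integrins ITGAD, ITGAL, ITGAM, ITGAX and ITGB2 were at 0 to 1.25 TPM in single libraries, and ITGAD was at 0 in all 4. Of 8 leukocyte and platelet markers, ITGB2 itself among them, 0 reached a mean of 1 TPM, and PTPRC, the common leukocyte antigen, was at 0 to 0.0617 TPM. ITGA4, ITGA10, ITGB7 and ITGB8 were at 0 to 1.16 TPM. In all, 14 of the 40 genes were under the level for testing.

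**Figure D3:**
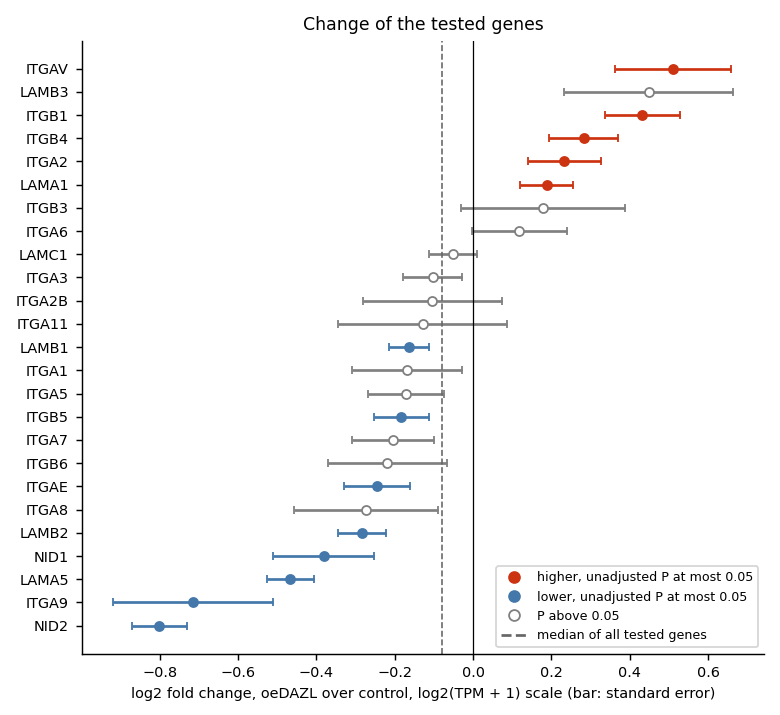
Log2 fold change (oeDAZL over control) of 25 of the 26 tested genes with its standard error from limma, ordered by size. NID2 at −0.80, ITGA9 at −0.72 and LAMA5 at −0.47 lie at the low end and ITGAV at 0.51 at the high end.

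The median log2 fold change was −0.15 in the family and −0.08 over all tested genes. This order reversed without control replicate 2, at −0.0878 in the family and −0.0991 over all tested genes. Of all genes, 65.3% were below 0. The sign was positive for 8 and negative for 18 of the 26 genes. Both oeDAZL libraries lay above both controls for 6 genes and below for 16, and the groups overlapped for 4, whereas 54.4% of all tested genes did not overlap (16% above and 38.4% below). The 7 laminins had 1 rise and 3 falls (median −0.10), the 2 nidogens 2 falls (median −0.59) and the 17 integrins 4 rises and 3 falls (median −0.13). Among the 19 genes of the family with a mean TPM of at least 10, a level chosen after the values were seen, 13 passed (68.4%), against 24.2% of all genes at that level.

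The changes are set beside base composition here as a description, and no test of a relation was made. The 5 genes that rose had a median GC content of 40.1% in their longest transcript (33.5% for ITGAV to 63.6% for ITGB4), and the 8 that fell had a median of 53.5% (48.9% for ITGA9 to 66.4% for LAMA5). Across the 26 genes the correlation of log2 fold change with GC content was −0.29, and across all tested genes it was −0.15. These are correlations across genes of the same 4 libraries, and genes are not independent replicates. Once GC content and length were corrected for, the correlation across the 26 genes was −0.15. The log2 fold change of LAMA5 went from −0.47 to −0.34, LAMB2 from −0.28 to −0.20, ITGAV from 0.51 to 0.44 and ITGB1 from 0.43 to 0.39. NID2 stayed near its value, at −0.79, while LAMA1 (0.19 to 0.22) and ITGB4 (0.28 to 0.38) grew. The part of base composition in the single changes was not otherwise tested.

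**Figure D4:**
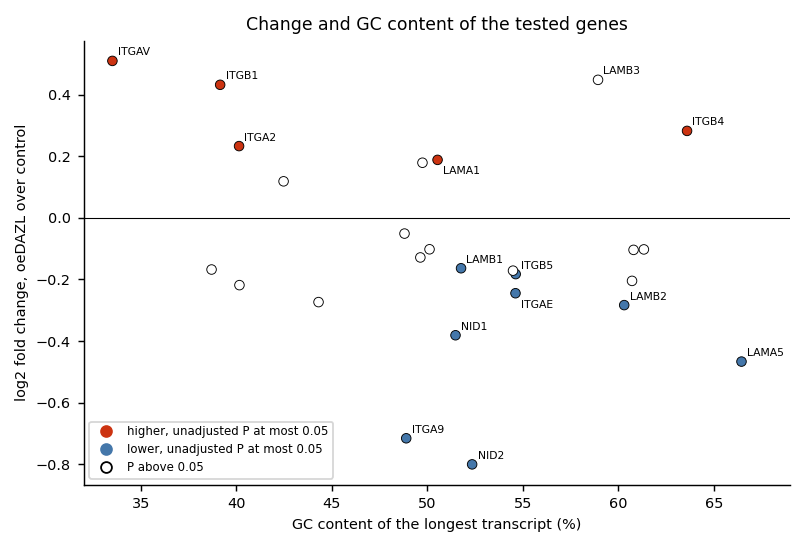
Log2 fold change (oeDAZL over control) of the 26 tested genes against the GC content (%) of their longest transcript, 1 point per gene, coloured by whether the gene rose, fell or did not pass. ITGAV (33.5%) and ITGB1 (39.2%) lie at the upper left and LAMA5 (66.4%) at the lower right, while ITGB4 (63.6%) has a high GC content and rose.

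The study concerns miRNAs raised by DAZL, so the 3′UTRs of the family were searched for sites of the let-7 family and of both arms of miR-199a. Other miRNAs that the study reports as raised were not searched, nor were shorter sites. The mature sequences below, from RefSeq (GRCh38.p14), are shown because their seeds, bases 2 to 8 in capitals, define the sites searched. The 8 let-7 miRNAs share a seed, for which let-7a-5p stands.
let-7a-5p: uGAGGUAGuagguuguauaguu
miR-199a-5p: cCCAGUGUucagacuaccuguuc
miR-199a-3p: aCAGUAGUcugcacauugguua

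An 8mer site, on the transcript strand, is CTACCTCA for let-7, ACACTGGA for miR-199a-5p and ACTACTGA for miR-199a-3p. The longest GENCODE 44 3′UTR of each gene was searched on hg38. The let-7 8mer was in 0 of the 26 tested genes, and in 0 of all 40, against 4.73% of the 13048 tested genes with a 3′UTR. The miR-199a-5p 8mer was in 1 tested gene, ITGA3 (3.85% against 4.99%), and the miR-199a-3p 8mer was in 2, ITGA3 and ITGA6 (7.69% against 3.04%). The sites, in capitals within 30 bases of the plus strand, are the only ones found in the family.
ITGA3, miR-199a-3p, chr17:50089247-50089276: tcgggaccaatACTACTGAcgtcctccctg
ITGA3, miR-199a-5p, chr17:50089649-50089678: ctccccctttcACACTGGAtccatcttgag
ITGA3, miR-199a-3p, chr17:50089699-50089728: ttgctgtcaaaACTACTGAcagggagcagc
ITGA6, miR-199a-3p, chr2:172505367-172505396: tccagtataagACTACTGAatctgctacca

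Neither gene with a site passed the test, at log2 fold changes of −0.10 (SE 0.08) for ITGA3 and 0.12 (SE 0.12) for ITGA6. NID2, LAMA5 and the other genes that fell hold no such 8mer in the UTR searched. A match is a description of the sequence only, and its absence says only that these letters are not in that UTR.

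The proteins that work with laminins and integrins were taken from 4 lists. Of 25 basement membrane partners 22 were tested, and 2 rose, 11 fell and 9 did not pass (59.1% passed, median log2 fold change −0.25). Over all tested genes 20.2% passed, 5.02% higher and 15.2% lower, which is the background for each of these lists. AGRN, encoding the proteoglycan agrin, had 261 and 252 TPM in control and 185 and 192 TPM in oeDAZL (log2 fold change −0.44). HSPG2, encoding perlecan, had 206 and 177 TPM in control and 124 and 134 TPM in oeDAZL (log2 fold change −0.57). FREM1, which anchors epithelia in the embryo, had 29.6 and 17.9 TPM in control and 10.1 and 11.4 TPM in oeDAZL, and it fell by 1.04 on the log2(TPM + 1) scale, past the 2-fold threshold. SMOC1, a secreted calcium-binding protein, had 3.26 and 1.58 TPM in control and 0.825 and 1.15 TPM in oeDAZL, so its group means also differed by more than 2-fold, but its change was −0.74 on that scale, which understates low genes. The risers were COL4A5 (0.21) and COL4A6 (0.26), neighbouring collagen IV chain genes at 48.9 to 81.3 TPM. The more abundant collagen IV chains did not rise. COL4A2 fell from 251 and 293 TPM to 223 TPM in each oeDAZL library (−0.28). COL4A1 did not pass, at 196 and 240 TPM in control and 197 and 190 TPM in oeDAZL (−0.16).

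Of 31 RGD and other integrin ligands 23 were tested, with 1 rise (FBN2, 0.39) and 10 falls (47.8% passed against 20.2% of all genes, median −0.17). COL3A1, a fibrillar collagen, had 583 and 479 TPM in control and 224 and 220 TPM in oeDAZL, a log2 fold change of −1.25 with a limma adjusted p of 0.0344. COL1A1 (log2 fold change −0.55) and MFGE8, an αV ligand (−0.69), fell as well. The list of 7 mesoderm and mesenchyme markers, 4 of which are also on this ligand list, summed to 2401 and 2418 TPM in control and to 1766 and 1770 TPM in oeDAZL, all 7 having a mean of at least 1 TPM. COL3A1, COL1A1 and COL1A2 make up most of that difference, whereas the groups overlapped for POSTN (40.6 and 122 TPM in control, 117 and 94.8 TPM in oeDAZL) and TWIST1 (13.1 and 11.02 TPM in control, 12.6 and 13.3 TPM in oeDAZL). PDGFRA had 14.6 and 11.9 TPM in control and 11.3 and 11.4 TPM in oeDAZL. PDGFRB had 48.8 and 52.7 TPM in control and 44.5 and 40.3 TPM in oeDAZL. The part of such cells in the falls of NID2, LAMA5, ITGA9 and their partners was not tested, and in these bulk samples fewer cells of a type and less RNA per cell cannot be told apart. The endothelial list reached 16.3 to 21.8 TPM per library with PECAM1 at 0 in all. Endoderm markers summed to 275 and 168 TPM in control and to 172 and 213 TPM in oeDAZL, and muscle markers to 1208 and 1552 against 1301 and 1266 TPM, both with overlap. Amnion and trophoblast markers summed to 3305 and 3201 TPM in control and to 3450 and 3491 TPM in oeDAZL. The higher sum came mostly from HAND1 (958 and 1042 TPM in control against 1250 and 1247 TPM in oeDAZL). KRT7 was higher as well (567 and 633 against 675 and 647 TPM). ISL1 (80.5 and 55.2 against 45.4 and 48.7 TPM), CGA (15.5 and 10.4 against 4.34 and 5.82 TPM) and GATA3 (105.6 and 102.1 against 98.4 and 101.6 TPM) were lower.

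Of 38 genes of the integrin adhesome, the proteins at the cytoplasmic tails, 35 were tested, with 3 rises and 10 falls (37.1% passed against 20.2% of all genes) and a median log2 fold change of −0.04 (0.04 with median-of-ratios scaling). PTK2, encoding focal adhesion kinase, rose from 119 and 117 TPM to 142 and 139 TPM (log2 fold change 0.25), while TLN1, encoding talin, fell from 148 and 154 TPM to 123.5 and 127 TPM (−0.27). NEDD9, a scaffold that binds focal adhesion kinase, fell from 34.0 and 31.3 TPM to 25.1 and 24.1 TPM (−0.39). Of 22 other laminin receptors and membrane partners of integrins 19 were tested, with 3 rises and 2 falls (26.3% passed, near the 20.2% of all genes, median 0.045). CD9, a tetraspanin that associates with β1 integrins, had 235 and 273 TPM in control and 429.8 and 422.5 TPM in oeDAZL (log2 fold change 0.75, limma adjusted p = 0.0836). SDC4, encoding syndecan-4, rose by 0.32, and BCAM, a receptor for laminin α5, fell from 175 and 119 TPM to 85.6 and 96.4 TPM (−0.66).

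**Figure D5:**
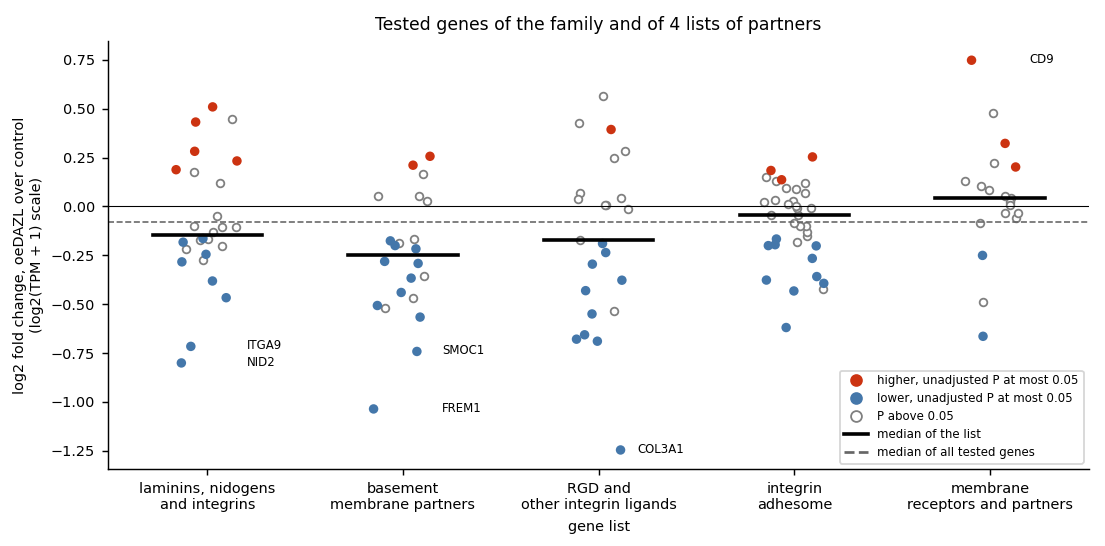
Log2 fold change (oeDAZL over control) of each tested gene of the family and of the 4 partner lists, 1 point per gene, with the list median and the median of all tested genes (−0.08) as lines. The basement membrane partners (median −0.25) lie lowest, and COL3A1 (−1.25) and FREM1 (−1.04) are the genes past a 2-fold change on the log2(TPM + 1) scale with an unadjusted P of at most 0.05.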

How the data were processed

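RNA-seq of 2 control and 2 oeDAZL libraries was analysed; the other samples of the series were not analysed here. Per the labels and the study's methods, the authors trimmed reads with Trim Galore and mapped them to hg38 with HISAT2 2.1.0. They kept unique mappings and quantified them with StringTie 2.1.4. The labels give Trim Galore 0.6.4, whereas the study's methods give another version. The annotation release and the strandedness of counting are not given in the sources used here. The authors deposited TPM per gene, with no counts, so the study's count test could not be used and depth is unknown. From 65003 entries, 45 PAR_Y and 18 repeated entries were left out. The 16687 genes whose TPM averaged 1 or more were fitted as log2(TPM + 1) with limma 3.58.1 in R 4.3.3 (lmFit, eBayes with trend), and fold changes on this scale understate those of low genes. The procedure was also run on simulated data with independent noise per gene and 2-fold changes on the log2(TPM + 1) scale. That run does not bear on smaller changes or on noise shared between genes. Shares within chain classes were compared with the two-sided exact permutation test. Of the members at that level 1 is not reported here and the others are named, as are, of the partner lists, the called genes and those of lowest P. COL4A1, COL4A2, COL4A5, COL4A6, FBN2 and SMOC1 were named after their values were seen. The members and lists were chosen with earlier results of these data known.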

Additional observations from a re-analysis of the deposited data

How the results depend on the processing

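NID2, LAMA5, LAMB2, ITGA9 and ITGB1 passed an unadjusted P of 0.05 in limma under all 14 alternatives, and ITGAV under all but limma without trend. Of the single-gene values under alternatives, 308 kept direction and side of the threshold, 36 no longer passed, 8 newly passed and 7 changed sign. The changes of sign were ITGA11 (0.0494 with quantile normalization, and −0.267 to 0.0102 with single libraries left out), ITGA2B (0.0744 with quantile normalization), LAMC1 (0.0325 with median-of-ratios scaling, and −0.114 to 0.0115 with single libraries left out), ITGA6 (−0.052 to 0.289) and ITGB3 (−0.007 to 0.365), both with single libraries left out, none of which passed with all libraries. Of the genes that passed, the replicate block lost ITGA2, ITGB5, LAMA1 and LAMB1, no trend lost ITGAV, ITGB5, LAMA1 and LAMB1, median-of-ratios lost ITGAE, ITGB5, LAMB1 and NID1, quantile normalization lost ITGAE and NID1, the GC and length correction lost ITGA2 and ITGB5, and no filter lost ITGB5. Genes that rose numbered 3 with the replicate block and 3 without trend, and 2 to 5 with single libraries left out. Genes that fell numbered 4 with median-of-ratios scaling and 4 to 9 with single libraries left out. The 2-fold threshold was passed by 0 to 1 falling gene with single libraries left out, the 1 being ITGA9 without control replicate 2. At a limma adjusted p under 0.05, 0 genes fell with no filter, median-of-ratios, quantile normalization, TPM without mitochondrial genes, the replicate block, no trend or the GC and length correction, against 1 in the report, and leaving out single libraries gave 0 to 4 that fell and 0 to 2 that rose, the highest without control replicate 2 (NID2, LAMA5, LAMB2 and ITGA9 falling, ITGB1 and ITGAV rising), where 673 genes in all passed against 10. The median of the family was −0.17 with a pseudocount of 0.1, −0.17 with the level for testing set to 5 TPM, −0.0771 and −0.0699 under median-of-ratios and quantile scaling, −0.12 after the GC and length correction and −0.13 to −0.0878 with single libraries left out. The value of −0.0878, without control replicate 2, stood beside −0.0991 for all genes. Median-of-ratios and quantile scaling moved the median of all genes from −0.08 to −0.003 and 0.006, and the share of genes below 0 from 65.3% to 50.5% and 48.7%. The labels do not say that a replicate number marks a shared batch, and deviations of same-numbered libraries correlated at −0.10; with crossed numbers as the replicate block, an alternative chosen after seeing the data like the GC and length correction, 1089 genes passed adjustment, 2 rising and 4 falling members among them. The causes of these differences were not tested. TPM keeps no depth, so counting error limits every value to an unknown extent.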
